A study of Mus musculus with 2 samples.

Results

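Telomerase and the proteins that cap chromosome ends were examined through 10 mouse genes: Tert, Terc, Dkc1, Rtel1, Terf1, Terf2, Tinf2, Acd, Pot1a and Pot1b. They were taken by symbol from the deposited exon count table, where all 10 were found, each as 1 of 30744 symbols and with a single gene model. All 10 had at least 20 reads over both libraries, the level at which a gene was taken as measured, as did 16326 symbols in all. The series holds 2 total RNA-seq libraries depleted of ribosomal RNA, 1 per group, and its title concerns the circadian clock in kidney tumours that arise when cells are reprogrammed inside the animal. The normal kidney is labelled WT, without doxycycline. The kidney tumour carries the genotype label Tet-OSKM/mPer2-luc, with doxycycline given. Tet-OSKM places the reprogramming factors Oct4, Sox2, Klf4 and c-Myc under a promoter that doxycycline opens through the transactivator M2rtTA, here expressed from the Rosa26 locus, and mPer2-luc reports the clock gene Per2 through luciferase. Both libraries carry the strain label C57BL/6 x DBA/2 F1. The growth protocol, which stands with both libraries, describes chimeras made from stem cells with these transgenes, so the tissue of such an animal can mix cells of the stem cell line with cells of the host blastocyst. Age and sex of the animals are not given in the sources used here.

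Telomerase adds the repeat TTAGGG to chromosome ends. TERT is its reverse transcriptase, Terc is the RNA that holds the template, and dyskerin, the product of Dkc1, binds and stabilises Terc as it does other RNAs of the H/ACA class. Shelterin coats the repeat: TRF1 (Terf1) and TRF2 (Terf2) bind it as double strand, POT1a and POT1b (Pot1a, Pot1b) bind the single strand, and TIN2 (Tinf2) and TPP1 (Acd) join the parts, TPP1 also recruiting telomerase. RAP1 (Terf2ip), the remaining shelterin subunit, is carried by TRF2 and was read here beside the others. RTEL1 is a helicase that unwinds telomere loops and G-quadruplexes during replication. Telomerase is active in pluripotent stem cells, and adult mouse tissues carry it at low levels.

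In the tumour, 3 of 3 telomerase genes, Rtel1 and 4 of 6 shelterin genes exceeded the normal kidney by 2-fold or more, with a 95% counting interval that excluded 1. Ratios are of counts scaled to library size with TMM, a method that corrects for differences in composition. Terf2 and Acd met the rule in neither direction, and no gene of the 10 was called lower. That is 8 of 10 genes higher, where 31.1% of the 16326 measured symbols were called higher and 28.1% lower (59.1% in either direction). All 8 also had an interval wholly beyond 2-fold, as did 26.3% of measured symbols. The members' log2 ratios ran from -0.38 for Acd to 9.19 for Terc, the latter set by a floor of 3 counts in the normal library. Their median was 1.78 against 0.08 for all measured symbols. With 1 library per group there is no replicate spread, so every difference below is between these 2 libraries, and the intervals cover counting error only. In bulk tissue, fewer cells of a type and less RNA per cell cannot be told apart.

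**Figure D1:**
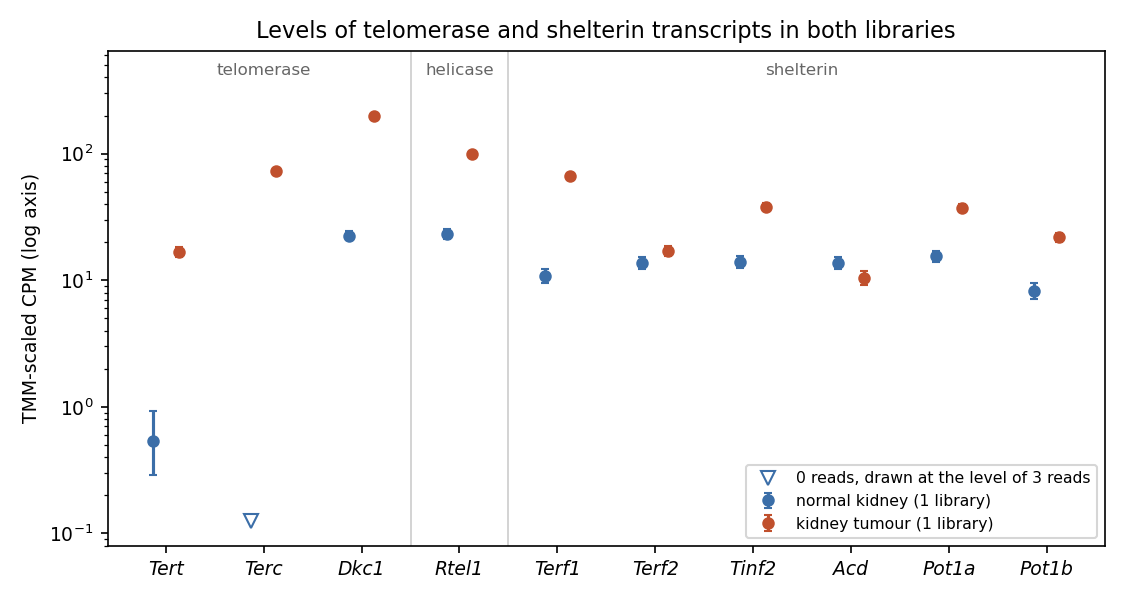
TMM-scaled counts per 1000000 reads (CPM, log axis) of each gene in the normal kidney and the kidney tumour, 1 library each, with exact Poisson 95% intervals. Terc, with 0 reads in the normal kidney, is drawn at the level of 3 reads (0.125 CPM). Terf2 and Acd are the genes whose points lie closest together.

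The windows around the transcription start are shown for the called genes Tert, Dkc1 and Rtel1 and for the 2 uncalled genes Terf2 and Acd, to set the sequence beside the different ratios. They run from 250 bases before to 50 bases after the start, from RefSeq on GRCm38.p6, the assembly of mm10, on the strand of the gene. Capitals mark matches on either strand to GGGCGG (GC box), CGGAAG (core of ETS factor sites) and CCAAT, and in Dkc1 also TATAAA. The searched E-box CACGTG, the repeat TTAGGG and the E2F site TTTCCCGC had no match in these 5 windows, and no matches of different motifs overlap in them.
Tert, chr13:73626661-73626960, plus strand: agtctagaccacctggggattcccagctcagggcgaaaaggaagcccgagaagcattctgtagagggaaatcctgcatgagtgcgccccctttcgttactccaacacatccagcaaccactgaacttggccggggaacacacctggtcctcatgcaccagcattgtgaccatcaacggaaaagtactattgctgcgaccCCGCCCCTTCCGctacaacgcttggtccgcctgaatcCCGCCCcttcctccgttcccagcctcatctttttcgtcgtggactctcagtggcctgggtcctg
Dkc1, chrX:75095604-75095903, plus strand: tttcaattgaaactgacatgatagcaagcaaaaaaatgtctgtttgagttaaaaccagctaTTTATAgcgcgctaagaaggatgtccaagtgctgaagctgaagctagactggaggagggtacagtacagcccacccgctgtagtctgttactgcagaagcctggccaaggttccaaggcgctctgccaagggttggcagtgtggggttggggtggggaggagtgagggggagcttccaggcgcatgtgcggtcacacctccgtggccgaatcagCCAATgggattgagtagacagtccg
Rtel1, chr2:181319474-181319773, plus strand: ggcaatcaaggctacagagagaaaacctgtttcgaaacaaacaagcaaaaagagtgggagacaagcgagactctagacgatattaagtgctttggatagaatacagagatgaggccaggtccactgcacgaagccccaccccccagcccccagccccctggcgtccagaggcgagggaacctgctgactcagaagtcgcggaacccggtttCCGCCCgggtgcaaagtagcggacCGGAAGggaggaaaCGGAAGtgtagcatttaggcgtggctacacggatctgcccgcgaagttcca
Terf2, chr8:107096496-107096795, minus strand: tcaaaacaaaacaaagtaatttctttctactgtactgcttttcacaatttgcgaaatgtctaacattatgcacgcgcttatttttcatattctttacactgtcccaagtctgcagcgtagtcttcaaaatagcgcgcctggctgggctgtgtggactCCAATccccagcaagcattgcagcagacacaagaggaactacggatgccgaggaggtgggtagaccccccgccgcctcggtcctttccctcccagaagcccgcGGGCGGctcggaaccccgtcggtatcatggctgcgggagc
Acd, chr8:105701179-105701478, minus strand: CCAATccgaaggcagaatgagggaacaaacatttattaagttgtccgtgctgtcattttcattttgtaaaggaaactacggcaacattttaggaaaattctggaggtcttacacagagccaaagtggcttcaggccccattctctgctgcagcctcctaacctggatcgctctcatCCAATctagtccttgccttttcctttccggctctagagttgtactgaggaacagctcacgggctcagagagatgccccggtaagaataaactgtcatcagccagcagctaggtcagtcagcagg

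The RefSeq table held 8 of the 10 members, all but Terc and Terf1. GGGCGG was present in 5 of the 8 windows (Tert, Terf2, Pot1a, Pot1b and Rtel1) and in 35.9% of 27025 gene windows of that length. CGGAAG was present in 4 (Tert, Tinf2, Pot1b and Rtel1), against 17.2% of all windows, and CCAAT in 4 (Terf2, Acd, Pot1b and Dkc1), against 37.9%. In Tert, GC box matches lay on the opposite strand at -51 to -46 and -14 to -9 from the start, and the ETS core match at -45 to -40. TTAGGG (10.5% of all windows) was found in that of Pot1b and TATAAA (14.2%) in that of Dkc1. CACGTG (7.24%) and TTTCCCGC (1.11%) were found in none of the 8. The windows of the uncalled Acd and of Dkc1, called higher, held neither a GC box nor an ETS core. They had 7 and 9 CpG dinucleotides, where the median of all windows was 7, and the other 6 windows had 15 to 24. These are matches of letters in a short window and not evidence of binding. The start in the table lay 90 bases from the start of the deposited model for Tert and 133 bases for Acd. In both the model starts downstream, so the windows of Tert and Acd end before the start of the model whose reads were counted.

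Tert (chromosome 13, 73627001 to 73649041, plus strand, mm10), which encodes the catalytic subunit, had 13 reads over exons in the normal kidney and 424 in the tumour. This was 0.541 and 16.7 CPM. The tumour value was 30.9-fold higher (interval 17.9 to 58.6). Only 7.86% of measured symbols were called higher by 16-fold or more. The width of the interval comes from the 13 reads, and per length Tert remained among the lowest of the 10 genes in both libraries.

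Terc (chromosome 3, 96414437 to 96414833, minus strand), the RNA template, had 0 reads in the normal kidney and 1849 in the tumour, or 72.9 CPM. Against a floor of 3 counts in the normal library (0.125 CPM), it was 584-fold higher in the tumour, and the lower limit of the counting interval was 475-fold. So the template RNA was not detectable in the normal library at this depth. The normal library did hold other short structural RNAs, with 51957 reads of Rmrp, the RNA part of RNase MRP, and 68952 of Rpph1, the RNA of RNase P. Scarna13, a Cajal body RNA of 274 bases, had 1556 reads there. Scarna10, Scarna17 and Scarna2, with shorter models of 70, 61 and 60 bases, had only 3, 1 and 0 reads there. Terc had no stretch of 50 bases in common with any other gene of the GENCODE M21 transcripts.

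Dkc1 (chromosome X, 75095854 to 75109776, plus strand), which encodes dyskerin, had 542 and 5013 reads, or 22.5 and 198 CPM. It was 8.77-fold higher in the tumour (8.02 to 9.60), the narrowest interval of the 3 telomerase genes. Its end overlaps Mpp1, on the opposite strand, by 44 bases. Mpp1 went the other way, with 5314 reads in the normal kidney and 590 in the tumour. Relative to Dkc1 within the same library, Tert took 1.92% (1.03% to 3.27%) of their joint reads per kilobase in the normal kidney and 6.47% (5.88% to 7.10%) in the tumour. The odds ratio of 3.53 (2.02 to 6.72), which does not depend on how the libraries are scaled, puts the difference of Tert above that of Dkc1.

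Rtel1 (chromosome 2, 181319724 to 181356616, plus strand), the telomere helicase, had 558 and 2530 reads, or 23.2 and 99.8 CPM. The tumour value was 4.30-fold higher (3.92 to 4.72).

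Among shelterin genes the double-strand binders parted. Terf1 (chromosome 1, 15805646 to 15844052, plus strand) had 259 reads in the normal kidney and 1701 in the tumour, 10.8 and 67.1 CPM, and was 6.23-fold higher (5.46 to 7.12). Its paralog Terf2 (chromosome 8, 107069402 to 107096545, minus strand) had 327 and 432 reads, 13.6 and 17.0 CPM, a ratio of 1.25 (1.08 to 1.45). The counting interval of Terf2 excluded 1, but the ratio stayed under 2-fold. Per kilobase, Terf1 made up 48.2% (44.1% to 52.4%) of the Terf1 and Terf2 reads in the normal kidney and 82.2% (80.6% to 83.8%) in the tumour. The odds ratio between the libraries was 4.97 (4.07 to 6.07), so the paralogs stood near parity in one library and at 4.63 to 1 in the other.

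The bridging subunits also parted. Tinf2 (chromosome 14, 55679080 to 55681817, minus strand) had 333 and 964 reads, 13.9 and 38.0 CPM, and was 2.74-fold higher in the tumour (2.42 to 3.12). Acd (chromosome 8, 105697083 to 105701095, minus strand), whose product TPP1 brings telomerase to the end, had 327 and 265 reads, 13.6 and 10.5 CPM. It was 1.30-fold lower (1.10 to 1.54), short of the 2-fold rule, and with plain CPM, without the composition factor, its log2 ratio turned from -0.38 to 0.19. Per kilobase, Tinf2 made up 59.4% (55.6% to 63.1%) of the Tinf2 and Acd reads in the normal kidney and 84.0% (82.0% to 85.8%) in the tumour, an odds ratio of 3.57 (2.90 to 4.40). The deposited model of Acd overlaps the end of Rltpr (Carmil2 in GENCODE), on the opposite strand, by 1083 bases, and exons of that gene cover 19.4% of the GENCODE exon bases of Acd. Rltpr had 5 reads in the normal kidney and 117 in the tumour, and its part in the tumour count of Acd was not tested, since the sources used here do not say whether counting used the strand. Exons of Gmpr2, on the opposite strand and with 369 and 394 reads, cover 4.77% of those of Tinf2. Of all stretches of 50 bases in the GENCODE M21 transcripts of Acd, 23.1% also occur in Carmil2, and 26.5% of those of Tinf2 occur in other genes, mostly Gmpr2.

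The single-strand binders kept close to each other. Humans have a single POT1, and mice have the paralogs Pot1a, which represses damage signalling at telomeres, and Pot1b, which limits resection of the end. Pot1a (chromosome 6, 25743735 to 25809226, minus strand) had 373 and 948 reads, 15.5 and 37.4 CPM, and was 2.41-fold higher in the tumour (2.14 to 2.72). Pot1b (chromosome 17, 55652025 to 55712628, minus strand) had 199 and 555 reads, 8.28 and 21.9 CPM, and was 2.64-fold higher (2.245 to 3.13). Pot1a made up 67.6% (63.6% to 71.3%) of their joint reads per kilobase in the normal kidney and 65.5% (63.1% to 67.9%) in the tumour. The odds ratio of 0.911 had an interval of 0.741 to 1.12, so no difference in their balance was detectable at this depth. Stretches of 50 bases shared with other genes came to 0.186% for Pot1a and 1.36% for Pot1b.

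**Figure D2:**
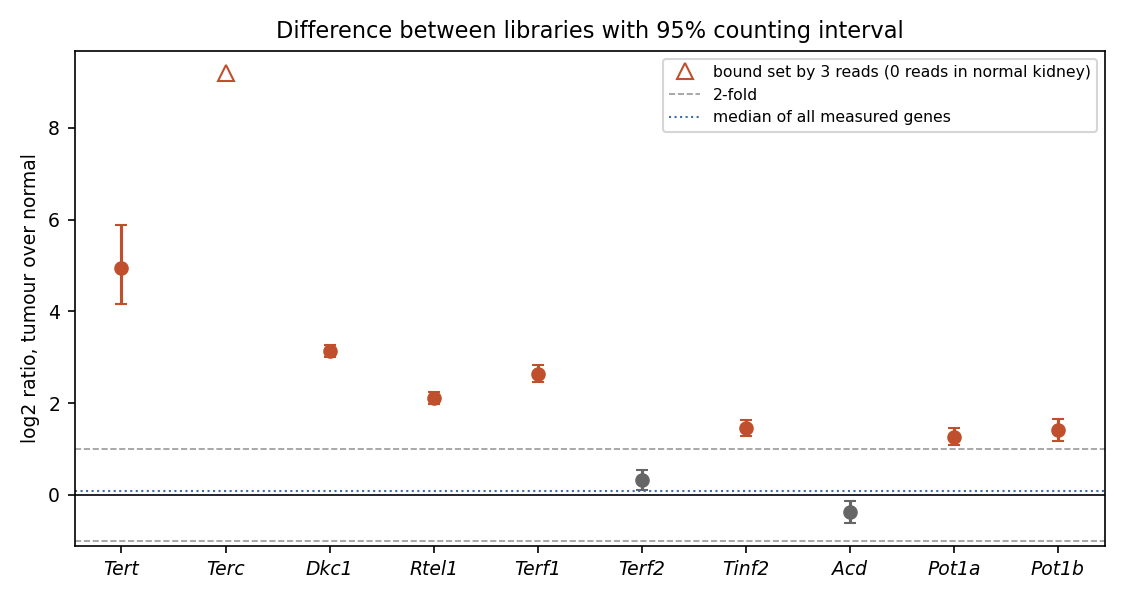
Ratio of TMM-scaled counts on the log2 scale, tumour over normal kidney, with exact 95% counting intervals. Orange points were called higher, grey points were not called, and the open triangle of Terc is the ratio against a floor of 3 reads. Terf2 and Acd lie between the dashed 2-fold lines.

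Over all 15 pairs of the 6 shelterin genes, 12 odds ratios between the libraries had intervals that excluded 1. The remaining 3 were the pairs among Tinf2, Pot1a and Pot1b. For Tinf2 against Pot1a the odds ratio was 1.14 (0.955 to 1.36) and for Tinf2 against Pot1b 1.04 (0.841 to 1.28), next to the 0.911 given for Pot1a against Pot1b. These 3 genes thus shifted by amounts that counting error does not separate, Terf1 lay above them, and Terf2 and Acd lay below. Terf2 and Acd differed from each other too, by an odds ratio of 1.63 (1.31 to 2.04). The odds ratio furthest from 1, in whichever order the genes of a pair are taken, was that of Terf1 against Acd, at 8.10 (6.54 to 10.03).

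Terf2ip, the subunit carried by Terf2, had 831 reads in the normal kidney and 520 in the tumour, 34.6 and 20.5 CPM. It was 1.69-fold lower (1.51 to 1.88), short of the 2-fold rule. The balance of these partners shifted, from 34.8% (31.9% to 37.8%) Terf2 per kilobase in the normal kidney to 53.0% (49.7% to 56.2%) in the tumour. With Terf2ip included, Terf1 went from 11.8% to 34.5% of all shelterin reads per kilobase, while Terf2ip went from 23.8% to 6.61%, Acd from 13.6% to 4.87% and Terf2 from 12.7% to 7.45%. Tinf2 stood at 19.9% and 25.5%, Pot1a at 12.3% and 13.8%, and Pot1b at 5.90% and 7.29%. The most abundant shelterin transcript per length was Terf2ip in the normal kidney and Terf1 in the tumour. Summed over the 7 genes, the deposited RPKM (reads scaled to model length and library total) was 23.98 in the normal kidney and 65.9 in the tumour.

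**Figure D3:**
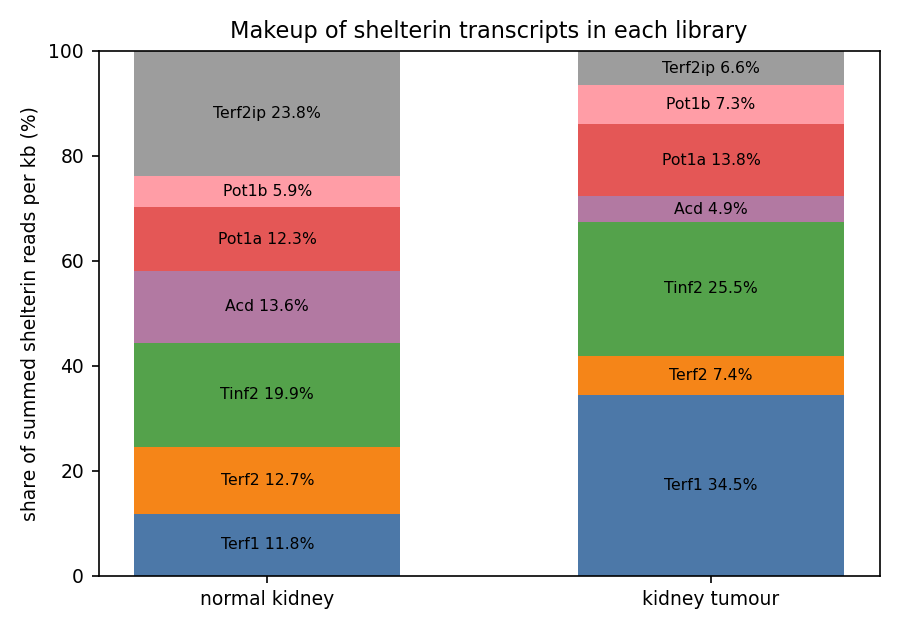
Share of each gene in the summed reads per kilobase of 7 shelterin genes, in percent, in the normal kidney and in the kidney tumour (1 library each, bars add to the whole). Terf1 takes 11.8% and 34.5%, Terf2ip 23.8% and 6.61%.

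Levels were ordered per length within each library, on the deposited RPKM. In the normal kidney Dkc1 (4.81 RPKM) and Tinf2 (4.76 RPKM) led and were not separated by their counting error. Acd, Rtel1, Terf2, Pot1a and Terf1 followed between 3.25 and 2.84 RPKM, and no neighbours in that run were separated. Pot1b came next at 1.41 RPKM, 2.01-fold below Terf1 (1.66 to 2.43), and Tert stood at 0.0943 RPKM, 15.0-fold below Pot1b (8.57 to 28.7). Terc closed the order with 0 reads, which its short model of 396 bases does not separate from the level of Tert.

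In the tumour the order was another one. Terc led at 141 RPKM, 2.60-fold above Dkc1 (2.46 to 2.74), which stood at 54.2 RPKM. Terf1 followed at 22.7 RPKM, then Rtel1 at 17.4 and Tinf2 at 16.8 RPKM, the last 2 not separated. Pot1a stood at 9.12 RPKM, and Terf2 (4.91 RPKM) and Pot1b (4.81 RPKM) were not separated. Tert, at 3.75 RPKM, and Acd, at 3.21 RPKM, were at the end, with a ratio of 1.17 (0.9997 to 1.37). Among the RPKM values of all measured symbols, Dkc1 moved from percentile 55.9 to 95.3, Terf1 from 44.9 to 86.6 and Tert from 10.4 to 46.7, while Acd stood at 47.5 and 43.1.

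Genes that build telomerase or mature its RNA were higher for 9 of 16 measured members (56.3%, against 31.1% of all measured symbols) and lower for none. The median log2 ratio of this list was 1.60. The highest were Gar1, an H/ACA protein, at 8.53-fold (6.78 to 10.9), and Ruvbl2, an ATPase of RNP assembly, at 7.16-fold (6.52 to 7.87). The lowest were Papd5, the polymerase that adds adenosines to unfinished Terc, at 1.25-fold lower (1.16 to 1.36), and Smg6, at a ratio of 0.992 (0.934 to 1.05), neither past the rule. The other H/ACA core proteins were looked at after their values were seen. Nhp2 was 2.86-fold higher (2.67 to 3.06), whereas Nop10, the smallest of them, had a ratio of 0.998 (0.934 to 1.07). Against Dkc1, the odds ratio of Gar1 was not separated from 1 (Dkc1 over Gar1 1.03, 0.793 to 1.32), and that of Nop10 was (Dkc1 over Nop10 8.79, 7.86 to 9.83). The balance of Dkc1 and Nop10 reads thus differed between the libraries, for a pair chosen with its values known.

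H/ACA RNAs other than Terc, taken as the models whose symbol starts with Snora or Scarna (which admits Cajal body RNAs of other classes), were higher for 21 of 32 measured (65.6%) and lower for 2. Their median was 1.53, and of all measured symbols 31.1% were called higher and 28.1% lower. The highest were Snora65, with 7 and 233 reads (31.6-fold, 15.1 to 79.4), and Snora43, with 11 and 288 reads (24.8-fold, 13.7 to 50.3). Lower were Snora30 at 3.31-fold (1.78 to 6.55) and Snora15 at 2.90-fold (1.24 to 7.53), from 44 and 22 reads in the normal kidney. Many of these RNAs lie inside introns of other genes, and reads of the host cannot be told apart from theirs here. Of 4 measured short structural RNAs 3 were higher, with a median of 1.53, and Scarna10 and Scarna13 are in both lists. Scarna10 was 16.4-fold higher (5.32 to 82.3) from 3 and 52 reads, Rmrp 3.24-fold (3.20 to 3.27) and Scarna13 2.58-fold (2.44 to 2.74), while Rpph1 was at 1.91-fold (1.89 to 1.93). The ratio of Terc against the floor, 584-fold with a lower counting limit of 475-fold, lay above the fold of every measured RNA of both lists. Box C/D proteins, which work on the other class of small nucleolar RNAs, and the nucleolar proteins Ncl and Npm1 were listed together. They were higher for 6 of 6, with a median of 3.01. Npm1 led at 13.4-fold (13.01 to 13.9), before Nop56 at 10.7-fold (9.78 to 11.6), and Ncl at 5.77-fold (5.62 to 5.94) and Nhp2l1 at 3.26-fold (2.83 to 3.78) were the lowest.

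The CST complex binds the single strand after telomerase and brings DNA polymerase alpha to fill in the other strand. Of the list of CST and telomere replication genes 15 of 20 (75%) were higher, against 31.1% of all measured symbols. None was lower, and the median was 2.42. Exo1, the nuclease that resects the end, led with 14 and 2614 reads (177-fold, 105 to 324), before the helicase Recql4 with 17 and 717 reads (40.0-fold, 24.8 to 69.0). The lowest were the nuclease scaffold Slx4, 1.74-fold lower (1.59 to 1.90), and the helicase Wrn, 1.30-fold lower (1.19 to 1.42), both short of the rule. The CST subunits themselves, singled out after their values were seen, differed. Obfc1, which encodes STN1, was 5.07-fold higher (4.14 to 6.24) and Ctc1 3.08-fold (2.79 to 3.40), and Ten1 had a ratio of 1.12 (0.884 to 1.43). Per kilobase Ctc1 made up 47.5% (42.7% to 52.5%) of the Ctc1 and Ten1 reads in the normal kidney and 71.3% (67.8% to 74.6%) in the tumour.

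Of 15 factors that bind or modify shelterin, Terf2ip among them, 5 were higher and 2 lower. The median was 0.67, and the share of 33.3% higher lay near the 31.1% of all measured symbols. With plain CPM 9 were higher, 60% against 42.1% of all symbols. Pif1, a helicase, was 106-fold higher (48.5 to 290.0) from 6 and 671 reads. Rif1, which acts in replication timing and repair choice, was 10.5-fold higher (10.1 to 11.02). Lower were Fbxo4, a ubiquitin ligase subunit described to act on TRF1, at 5.20-fold (4.04 to 6.77), and the kinase Nek7, also described to act on TRF1, at 3.95-fold (3.67 to 4.25).

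Of 19 genes of damage signalling and end joining 10 (52.6%) were higher, against 31.1% of all measured symbols. None was lower, and their median was 1.30. With plain CPM 17 of them were higher, where 42.1% of all symbols were. Chek1, the kinase downstream of ATR, was 64.4-fold higher (42.4 to 103) and the histone variant H2afx 36.6-fold (30.0 to 45.0), and Nbn had a ratio of 1.03 (0.940 to 1.12) and Atrip of 1.26 (1.11 to 1.42). In the list of recombination and lengthening without telomerase 10 of 11 measured genes were higher and 1 neither. The median of 2.09 counts 1 gene at its ratio against the floor. Fancd2 led at 74.0-fold (51.05 to 112). Smc6 was 2.30-fold higher (2.17 to 2.43), and Rad52, at 1.74-fold (1.44 to 2.11), was the gene not called. Zscan4a, of a family switched on in bursts in stem cells when telomeres lengthen, had 0 and 28 reads. It was 8.85-fold higher against the floor of 3 counts, with a lower counting limit of 6.73-fold. Its copies are near identical, so the reads of single Zscan4 genes are uncertain, and Zscan4b, Zscan4c, Zscan4d, Zscan4f, Tcstv1 and Tcstv3 had too few reads to be measured. Of the meiotic genes that tie telomeres to the nuclear envelope only 3 were measured. Ccdc155 had 1 and 48 reads (45.5-fold, 7.79 to 1835), Sun1 had a ratio of 1.17 (1.11 to 1.25) and Sun2 was 1.91-fold lower (1.71 to 2.14).

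Of 14 factors described at the Tert promoter 6 (42.9%) were higher and none lower, where 31.1% of all measured symbols were higher, and their median was 0.89. With plain CPM 11 were higher, where 42.1% of all symbols were. The highest were E2f1 at 8.66-fold (6.71 to 11.3) and Myc at 6.08-fold (4.74 to 7.89). The Myc antagonist Mxd1, with 385 and 214 reads, was 1.90-fold lower (1.60 to 2.25), short of the rule, and Men1 had a ratio of 1.07 (0.981 to 1.16). Myc and Klf4 are also on the transgene, and the part of transgene transcripts in their exon counts was not tested.

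**Figure D4:**
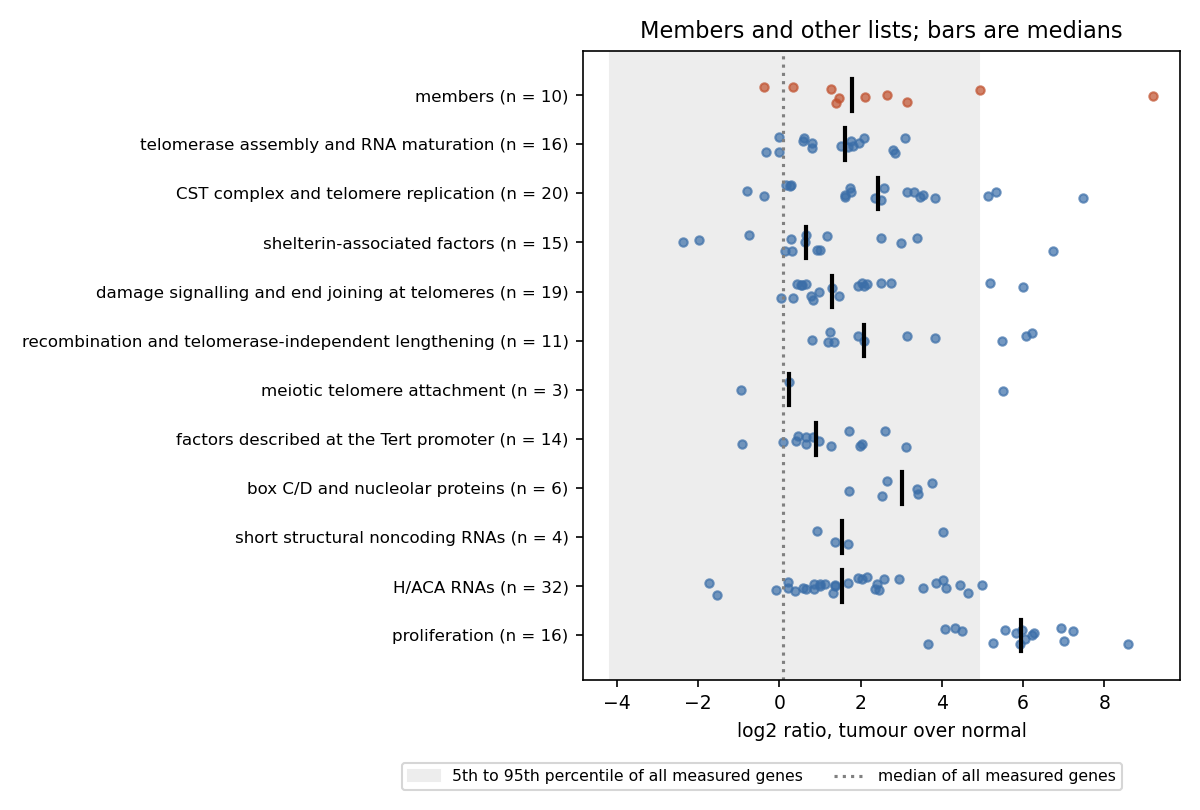
Log2 ratio, tumour over normal kidney, of each measured gene in the list of members (orange) and in the other lists (blue), with n genes per list and a bar at the median. Grey marks the range from the 5th to the 95th percentile of all measured genes. Proliferation genes have the highest median, at 5.95 against 1.78 for the members. The member Terc, at 9.19 against the floor, lies to the right of all of them.

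Markers of dividing cells and of other cell types also differed between the libraries, in both directions. Of all measured symbols 31.1% were higher and 28.1% lower. All 16 proliferation genes were higher, from 124 to 5064 CPM in sum and with a median log2 ratio of 5.95, led by Bub1 at 385-fold (229 to 705) and Plk1 at 149.9-fold (83.6 to 301). Even the lowest, Mcm7 at 16.9-fold (15.4 to 18.5) and Mcm6 at 12.6-fold (11.7 to 13.6), were above the 8.77-fold of Dkc1. Tert, at 30.9-fold (17.9 to 58.6), and Terc, at 584-fold against the floor, lay above both, with the interval of Tert overlapping that of Mcm7. All 8 pluripotent cell markers were higher, and 5 of them (Pou5f1, Sox2, Zfp42, Dppa5a and Tdgf1) had 0 reads in the normal kidney. Their sum was 26.6 and 1927 CPM, of which Esrrb alone, 2.52-fold higher, gave 26.5 CPM in the normal kidney, and the other 7 markers had 2 reads there and 1860.5 CPM in the tumour. Pou5f1, which encodes Oct4, and Sox2 are also on the transgene, and the part of its transcripts in their counts was not tested. All 5 germ cell markers were higher, at 1.497 and 95.0025 CPM in sum, with none at 0. All 10 kidney tubule markers were lower, at 53862 and 879 CPM in sum, with none at 0 in the tumour. Of the normal sum Kap alone gave 26616 CPM, and it had 8.05 CPM in the tumour. Most of the tumour sum came from Lrp2 (608 CPM) and Cubn (210 CPM), and the next was Umod at 25.7 CPM. Whether these reads came from kidney tubule cells was not tested. Of 5 endothelial markers 3 were lower (369 and 106 CPM). Of 4 measured immune markers 2 were higher, Lyz2 with 13.9 and 156 CPM and Cd68 with 2.58 and 20.9 CPM. Csf1r, with 51.6 and 27.2 CPM, had a ratio of 0.526, and Ptprc had one of 1.18. The immune sum, in which the unmeasured Cd3e and Cd79a are counted, was 84.3 and 224 CPM. Of 5 stromal markers the collagen genes Col1a1 (17.4-fold) and Col1a2 (3.39-fold) were higher, while Pdgfra, Pdgfrb and Dcn had ratios of 0.617, 0.809 and 0.669. The stromal sum was 262 and 509 CPM, and the median log2 ratio was -0.31, of the opposite sign. The part of any of these in the telomerase and shelterin values was not tested.

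**Figure D5:**
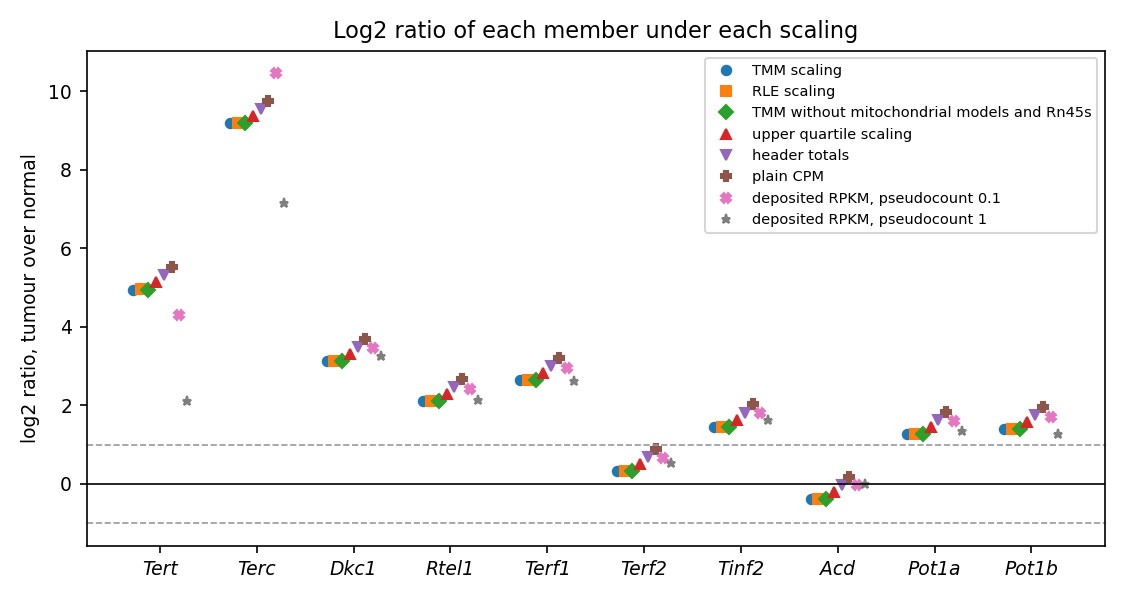
Log2 ratio of each gene, tumour over normal kidney, under TMM and 7 other scalings or units. Points between the dashed lines are under 2-fold. Only Acd changes sign, to 0.19 with plain CPM, and no gene crosses a dashed line.

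The scaling of the libraries shifts all genes together. With plain CPM the median log2 ratio of all measured symbols was 0.64 in place of 0.08, and 67.6% in place of 52.5% of the calls were higher. With header totals the median was 0.44 and that share 62.5%, and with the deposited RPKM plus 0.1 they were 0.40 and 62.6%. The members' median went with them, to 2.35, 2.14 and 2.11. The 8 genes called higher were the same under all 12 alternative settings. The changed read filters and the 1.5-fold threshold could not have removed any of them, and none has several models to sum. Plain CPM and header totals, and the RLE and upper quartile scaling listed below, raised every member's ratio. Those scalings could not have removed a call either. The rule of an interval wholly beyond 2-fold repeats the main intervals, which lay there for all 8 genes. Among the genes of the other lists named above, plain CPM turned Papd5 (0.24), Wrn (0.19), Smg6 (0.55), Nop10 (0.56) and Pdgfrb (0.26) positive, carried Rad52 (1.36) and Rpph1 (1.501) past 2-fold and left Snora15 (-0.97) short of it. Tert ran from 2.12 with RPKM plus 1, a scale that understates the change of low genes, to 5.52 with plain CPM.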

How the data were processed

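Total RNA of 2 mouse kidney samples was sequenced after depletion of ribosomal RNA with a stranded kit, per the labels' protocols. The authors deposited raw counts of reads in exons for 32958 gene models of the UCSC knownCanonical set, and RPKM values that equal count over model length and header total (largest difference 1.80e-06). Without role or order, bcl2fastq, STAR 2.5.0c, HOMER and mm10 are named in the submitters' processing notes; the strand setting and the treatment of reads with several positions are not given in the sources used here. Counted reads came to 29258428 for the normal kidney and 20836819 for the tumour (72.4% and 62.8% of the header totals).

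Where several models shared a symbol, the model with most reads was kept. Libraries were scaled with TMM over the whole table (edgeR 4.0.16, R 4.3.3; factors 0.822 and 1.22). Ratios carry exact conditional (Clopper-Pearson) 95% intervals, and so do shares, converted to reads per kilobase. Odds ratios carry exact conditional intervals. PCR copies are not told apart from molecules. A gene was called at 2-fold or more with an interval excluding 1, if it had at least 20 reads over both libraries. A count of 0 was set to 3 counts in the library concerned. With 1 library per group no p-value was computed. Exon overlap and shared stretches of 50 bases were read from GENCODE M21, promoter windows from RefSeq GRCm38.p6. Python 3.11.15, numpy 2.4.6, pandas 2.3.3, scipy 1.17.1 and matplotlib 3.10.9 were used.

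Members and lists were chosen with earlier results of these data known. Every member is named; in each other list, the 2 genes with the largest and the 2 with the smallest ratio among measured genes, Terf2ip, and genes at 0 in 1 library with at least 20 reads in the other. With 2 libraries a pattern is a single ratio, so no gene is named as most alike. A gene that the rule selects is not reported here.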

Additional observations from a re-analysis of the deposited data

How the results depend on the processing

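The 12 alternatives were plain CPM, RLE and upper quartile scaling, header totals, deposited RPKM plus 0.1 or 1, TMM without mitochondrial models and Rn45s, no read filter, at least 100 reads, reads summed over models, a 1.5-fold threshold, and an interval wholly beyond 2-fold. Under each, 8 of 10 members were called higher and none lower. The read filters and the 1.5-fold threshold could not take such a call away, and no member had several models to sum. Neither could plain CPM, header totals, RLE or upper quartile scaling, which raised the ratio of every member. The setting of an interval wholly beyond 2-fold repeats the main intervals of the 8 genes. Of the 124 measured genes in the 10 other lists, proliferation included and H/ACA RNAs apart, 81 were called higher and 2 lower. The 81 ran between 78 (of 121, at least 100 reads) and 103 (plain CPM) under the alternatives, and the 2 became 6 at 1.5-fold. Over all measured symbols 31.1% were higher, 27.8% with at least 100 reads and 42.1% with plain CPM. Lower were 28.1%, or 35.3% at 1.5-fold. Without division by length, the Terf1 share of Terf1 and Terf2 reads in the tumour was 79.7% in place of 82.2%, and the other shares of the pairs Terf1 and Terf2, and Pot1a and Pot1b, stayed within their intervals. Of 20 motif matches in the members' windows, 15 lay wholly in the 250 bases before the start. No paired analysis was possible because each group holds 1 library, and for the same reason no library could be left out. Depth limits Tert, with 13 reads, and Terc, with 0, in the normal kidney.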

Other observations

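The nearest measured gene model on each side, without overlap, of the 10 members was read for its ratio. Of these 20 neighbours 5 (25%) were higher in the tumour, 8 (40%) lower and 7 neither, where 31.1% of all measured symbols were higher and 28.1% lower. With plain CPM 6 were higher and 6 lower, as Clptm1l and Gpr37 lost their call and Gab3 passed 2-fold, and the log2 ratios of Arfrp1 (0.53) and Pard6a (0.31) turned positive. Tert lies between Clptm1l, with 2637 and 1190 reads (log2 ratio -1.22), and the kidney amino acid transporter Slc6a18, with 22576 and 812 reads (log2 ratio -4.87). The neighbours of Terc were far off. Fcgr1, at 120468 bases, was higher with a log2 ratio of 1.53 from 26 and 79 reads. Gm15441, at 140935 bases, was lower with -4.67 from 242 and 10 reads. Distances of the neighbours ran from 329 bases (Gmpr2 to Tinf2) to 2430705 bases (Zfp800 to Pot1a). Rtel1 has Arfrp1 at 1074 bases, with 569 and 584 reads (log2 ratio -0.04), and Stmn3 at 5224 bases, with 0 and 98 reads. Stmn3 was 31.0-fold higher against the floor of 3 counts (lower counting limit 24.7-fold). Acd lies 552 bases from Pard6a, with 161 and 142 reads (log2 ratio -0.26).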
